A study of Homo sapiens with 6 samples.

Results

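The genes of chorionic gonadotropin and luteinizing hormone were examined in U87 cells, an established human glioblastoma line. The set has 8 genes of the 54628 in the count files: CGA, which encodes the alpha chain, and the beta-chain genes CGB1, CGB2, CGB3, CGB5, CGB7, CGB8 and LHB. It was chosen by symbol because its beta genes stood lower in the mitochondria-receiving cells of these same libraries. The difference between the groups is therefore given for these genes as a description, with no test. The series holds 6 messenger RNA libraries of U87 cells taken from a co-culture by fluorescence-activated sorting. Its title speaks of mitochondria shuttled from astrocytes to glioblastoma cells, and the titles of the libraries form 2 groups: 3 libraries of cycling cells with received mitochondria, called received here, and 3 of cycling cells without, called not received. The comparison asks what differs in the transcriptome of cycling U87 cells that took up mitochondria. Both groups are 1 cell line from the same kind of co-culture, and no genotype, drug or time separates them in the labels. The labels do not say how receipt of mitochondria was read at the sorter, from which species the astrocytes came, or whether replicates were separate cultures. P-values on the other genes below therefore measure the spread between these samples, which may be technical.

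Chorionic gonadotropin and luteinizing hormone are glycoprotein hormones. Each is a pair of an alpha chain, shared with follicle-stimulating hormone and thyrotropin, and a beta chain that sets which receptor is bound. Chorionic gonadotropin is made by the syncytiotrophoblast of the placenta, and LHB is the pituitary beta chain. The CGB genes arose by duplication of an LHB-like gene in primates and lie with LHB in 1 cluster. Free beta chain without alpha chain is known to be made by some tumours outside the placenta. Transcription of CGA in trophoblast depends on cAMP response elements, and that of the CGB genes is linked to AP-2 and Sp factors.

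The stretches before the gene starts are shown because they separate the members into types that share almost all their bases and types that do not. They come from RefSeq (assembly GRCh38.p14, where 8 of 8 members matched) and cover the 250 bases before the annotated start of transcription, 5′ to 3′ on the gene's strand. Capitals mark matches on either strand to 4 motifs. The cAMP response element was searched as TGACGTCA and the AP-2 motif as GCCNNNGGC. The GC box was searched as GGGCGG. For the TATA box the letters were TATAAA. In CGB7 the AP-2 match overlaps a GC box. CGA lies on the minus strand at chr6:87095107-87095356, CGB1 on the minus strand at chr19:49036896-49037145, CGB5 on the plus strand at chr19:49043598-49043847, CGB8 on the minus strand at chr19:49049112-49049361 and CGB7 on the minus strand at chr19:49057750-49057999.
CGA: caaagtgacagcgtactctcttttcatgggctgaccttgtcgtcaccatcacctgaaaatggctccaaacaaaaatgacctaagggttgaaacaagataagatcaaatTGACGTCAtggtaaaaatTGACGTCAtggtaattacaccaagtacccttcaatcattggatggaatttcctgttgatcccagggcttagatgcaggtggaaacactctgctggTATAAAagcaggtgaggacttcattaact
CGB1: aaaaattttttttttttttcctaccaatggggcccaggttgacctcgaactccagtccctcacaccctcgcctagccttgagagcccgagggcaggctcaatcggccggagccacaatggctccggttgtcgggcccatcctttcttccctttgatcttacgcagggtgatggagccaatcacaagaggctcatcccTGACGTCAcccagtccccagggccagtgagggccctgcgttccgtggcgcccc
CGB5: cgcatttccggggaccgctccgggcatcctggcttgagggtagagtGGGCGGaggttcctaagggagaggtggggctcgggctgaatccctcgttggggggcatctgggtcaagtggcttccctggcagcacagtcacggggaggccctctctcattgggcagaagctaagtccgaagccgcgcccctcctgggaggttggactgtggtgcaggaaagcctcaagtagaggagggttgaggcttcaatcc
CGB8: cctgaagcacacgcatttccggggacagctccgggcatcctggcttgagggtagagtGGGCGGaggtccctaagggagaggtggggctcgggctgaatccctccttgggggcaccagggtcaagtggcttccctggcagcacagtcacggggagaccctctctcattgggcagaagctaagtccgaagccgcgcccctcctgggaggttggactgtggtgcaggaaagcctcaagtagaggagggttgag
CGB7: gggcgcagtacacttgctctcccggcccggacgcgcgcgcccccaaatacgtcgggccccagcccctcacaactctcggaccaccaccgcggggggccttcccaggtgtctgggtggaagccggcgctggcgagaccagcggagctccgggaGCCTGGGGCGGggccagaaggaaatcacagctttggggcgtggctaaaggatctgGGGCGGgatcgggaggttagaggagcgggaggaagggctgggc

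The windows of CGB5 and CGB8 were identical at 233 of 239 aligned bases (97.5%), and that of CGB3, which is not shown, matched CGB8 at 235 of 240 (97.9%) and CGB5 at 241 of 249 (96.8%). CGB1 and CGB2 shared 191 of 218 aligned bases (87.6%) with each other. Their annotated starts differ from those of the other CGB genes, and CGB1 aligned to CGB5 at 150 bases with 75.3% identity. The cAMP response element occurred in 3 of the 8 members, in CGA as a pair and in CGB1 and CGB2 as 1 match each, and in 1.65% of the 35116 promoter windows of the table. The letters TATAAA of the TATA box were found in CGA alone of the 8, against 10.7% of windows. Variants of these letters were not searched, and the LHB window, which is not shown, holds TATATA. The GC box was found in CGB3, CGB5, CGB7, CGB8 and LHB, against 42.6% of windows, and the AP-2 match in CGB7 alone, against 19.8%. CANNTG, the E-box, was found in 6 of the 8 and in 61.8% of windows. A match describes the letters of this window and shows no binding.

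**Figure D1:**
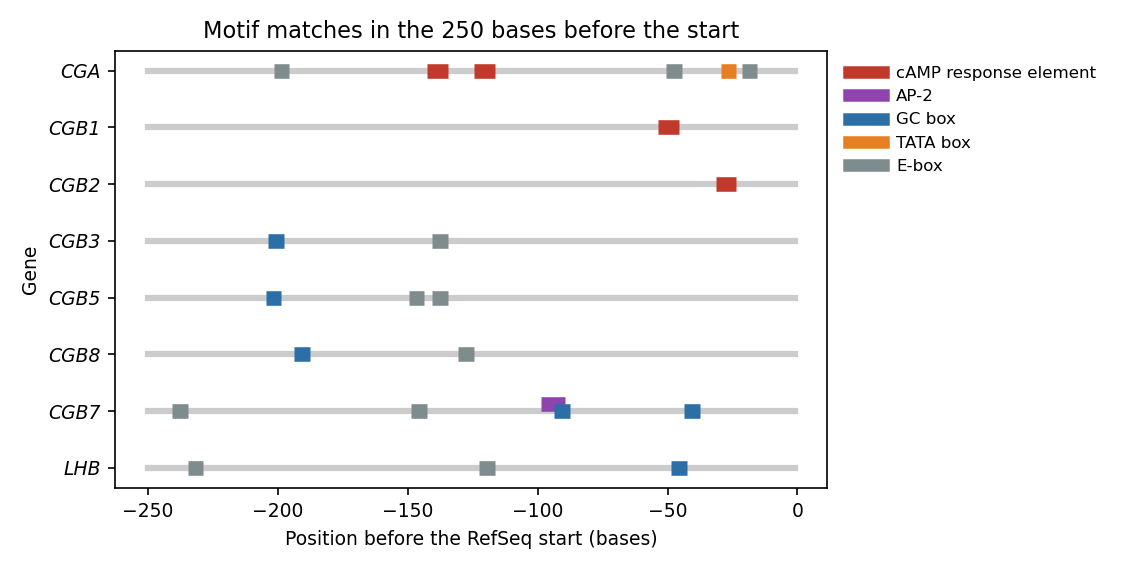
Motif matches in the 250 bases before the RefSeq start of each member, on a horizontal axis of bases before the start. Each coloured block is 1 match, and the cAMP response element stands in CGA, CGB1 and CGB2 while the GC box stands in CGB3, CGB5, CGB7, CGB8 and LHB.

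How far a read can tell the members apart was measured on GENCODE release 29 transcripts, with the longest coding transcript of each member cut into every window of 150 bases, the length of the reads. Of the windows of CGB5, 63.7% also occurred without a mismatch in a transcript of another gene. The figure was 52.3% for CGB8, 52.7% for CGB3, 43.4% for CGB7, 42.7% for CGB2 and 76.5% for CGB1. For CGB7, only 5.84% to 7.07% of windows occurred in each other CGB gene. Its matches also took in AC008687.1, AC008687.7 and AC008687.8, which are outside the set. CGB5 and CGB8 differed at 4 of 841 aligned transcript bases, and CGB1 and CGB2 at 9 of 775. No window of LHB (0 of 375) or of CGA (0 of 861) occurred in another gene, although LHB was 92.4% identical to CGB5 over 523 aligned bases. No source used here states how shared reads were counted, so the split of counts among the CGB genes is uncertain, and their sum is given beside them.

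Library totals ran from 17879552 to 46392491 counts. Not-received replicate 2 was the deepest and stood apart: its score on the leading principal component (56.2% of the variance) was -44.43, against -13.83 and -14.76 for replicates 1 and 3 and 16.65 to 28.32 for received cells. The chi-square per gene between libraries of 1 group was 3.39 to 3.89 in received cells, 5.80 for not-received replicate 1 against replicate 3, and 22.1 and 20.2 for replicate 2 against these, so no pair agreed within sampling noise. Of 14100 genes tested, 18.9% were called at an adjusted p under 0.05 by edgeR's quasi-likelihood test, 9.21% higher and 9.67% lower in received cells. With scaling by library size alone the 1298 higher and 1364 lower genes became 1683 and 1110. Levels below are in CPM (counts-per-million), scaled with TMM factors, and fold changes are received over not received.

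The alpha chain was not detected. CGA had 0 counts in each of the 6 libraries, 0 of 143561570 counts, which allows a level of up to 0.0209 CPM over all libraries and up to 0.168 CPM in the shallowest (3 counts, counting error only). The other beta chains of the family were at or near 0 as well: FSHB, of follicle-stimulating hormone, had 0 counts, and TSHB, of thyrotropin, had 1 count in all. Of the thyrostimulin chains GPHA2 and GPHB5, GPHA2 had 5 counts, all in received replicate 2, and GPHB5 had 0.

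The beta-chain genes were transcribed in both groups and were lower in received cells. Their counts together came to 486, 338 and 424 in received replicates 1, 2 and 3 and to 1423, 2689 and 1124 in the not-received libraries. As a level, the summed beta genes stood at 22.6, 18.1 and 23.6 CPM in received cells and at 77.2, 59.3 and 53.9 CPM in not-received cells. The groups did not overlap, the lowest library was received replicate 2 and the highest was not-received replicate 1. The means were 21.4 ± 2.92 and 63.5 ± 12.2 CPM (SD, n = 3 each), 2.95-fold lower in received cells (log2 fold change -1.56 ± 0.15 SE). Without not-received replicate 2 the log2 fold change was -1.61. In bulk RNA, fewer cells that express a gene and less of its RNA per cell cannot be told apart.

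Of the 8 members, 5 passed the filter on low counts (CGB3, CGB5, CGB7, CGB8 and LHB). In each of these every received library lay below every not-received library, a pattern seen in 19.5% of all genes tested, while the opposite pattern was also seen in 19.5%. Because the members were chosen from this contrast, nothing is read from that count.

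CGB8, one of the main placental beta-chain genes, held most of the counts. It had 344, 212 and 289 counts in received replicates 1, 2 and 3 (16.0, 11.4 and 16.1 CPM) and 940, 1746 and 742 in not-received cells (51.1, 38.5 and 35.6 CPM). Received replicate 2 was the lowest and not-received replicate 1 the highest. The log2 fold change was -1.52 ± 0.18 SE, 2.86-fold lower.

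CGB5, the other main placental beta-chain gene, had the lowest fold change of the 5 members in the fit. It had 61, 56 and 48 counts in received cells (2.84, 3.00 and 2.67 CPM) and 290, 550 and 240 in not-received cells (15.8, 12.1 and 11.5 CPM). The received libraries lay close together, and each was far below the lowest not-received library. The log2 fold change was -2.20 ± 0.16 SE, 4.6-fold lower, the 116th lowest of the 14100 genes tested.

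CGB3, which lies next in order to LHB among the CGB genes, was low. It had 5, 5 and 7 counts in received cells (0.233, 0.268 and 0.389 CPM) and 20, 51 and 20 in not-received cells (1.09, 1.12 and 0.959 CPM), with a log2 fold change of -1.84 ± 0.37 SE. Its level varied little among the not-received libraries, and not-received replicate 1 was not above the others here as it was for CGB8 and CGB5.

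CGB7 and LHB differed less. CGB7 had 45, 46 and 54 counts in received cells (2.09, 2.47 and 3.00 CPM) and 99, 214 and 70 in not-received cells (5.38, 4.71 and 3.35 CPM), with a log2 fold change of -0.83 ± 0.22 SE. The gap between received replicate 3 and not-received replicate 3 was small. LHB had 26, 17 and 23 counts in received cells (1.21, 0.912 and 1.28 CPM) and 57, 80 and 42 in not-received cells (3.10, 1.76 and 2.01 CPM), with a log2 fold change of -0.99 ± 0.29 SE. Not-received replicate 1 was the highest for both genes, and without it the log2 fold changes were -0.70 for CGB7 and -0.72 for LHB.

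CGB1 and CGB2, which are transcribed from a start of their own and are known as weakly expressed members, had too few counts for the test. CGB1 had 2, 0 and 2 counts in received cells and 9, 12 and 5 in not-received cells, and CGB2 had 3, 2 and 1 against 8, 36 and 5. No fold is given for either at these counts. Most counts of CGB2 came from not-received replicate 2, where it stood at 0.793 CPM against 0.435 CPM in replicate 1 and 0.240 CPM in replicate 3.

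**Figure D2:**
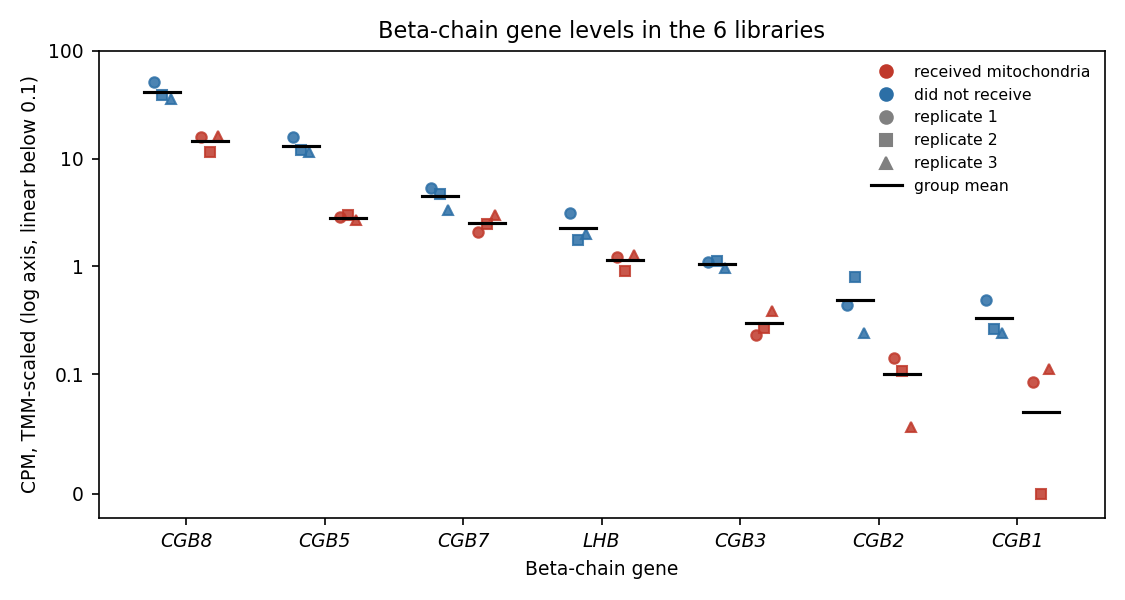
Level of each beta-chain gene in the 6 libraries, in TMM-scaled CPM on a logarithmic axis that is linear below 0.1, with red points for received and blue points for not-received cells and black bars at the group means. For each gene the red points lie below the blue ones, from CGB8 (means of 14.5 and 41.7 CPM) down to CGB1 (0.0681 and 0.331 CPM).

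Per length of the longest GENCODE coding transcript, the order of levels in not-received cells was CGB8 (47.3 CPM per kilobase), CGB5 (15.6), LHB (4.37), CGB7 (1.32), CGB3 (1.2), CGB2 (0.631) and CGB1 (0.421). CGB8, CGB5 and LHB had ranges that did not overlap with their neighbours in this order. CGB7 (0.989 to 1.59) overlapped with CGB3 (1.09 to 1.28), and CGB2 (0.310 to 1.02) with CGB1 (0.305 to 0.622). In received cells the order was the same, from CGB8 (16.4) and CGB5 (3.37) through LHB (2.16), CGB7 (0.744) and CGB3 (0.338) to CGB2 (0.130) and CGB1 (0.0865), and CGB2 and CGB1 were the pair whose ranges overlapped. The place of CGB7 rests on its longest transcript of 3386 bases: with its shortest coding transcript of 918 bases it stood at 4.88 and 2.75 CPM per kilobase in not-received and received cells, above LHB in both. The order also depends on how shared reads were counted, which is unknown. No window of LHB occurred in another gene, against 63.7% of those of CGB5 and 76.5% of those of CGB1. The levels were not adjusted for this.

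Within the beta-chain counts, the shares of CGB5, CGB7 and LHB did not overlap between the groups, and those of CGB8, CGB3, CGB2 and CGB1 did. CGB8 took 67.2% ± 4.11 of the beta counts in received and 65.7% ± 0.638 in not-received cells (SD, n = 3 each). CGB5 took 12.6%, 16.6% and 11.3% in received replicates 1, 2 and 3 and 20.4%, 20.5% and 21.4% in not-received replicates 1, 2 and 3. The exact 95% Clopper-Pearson intervals of the nearest pair overlapped, 12.8% to 21.0% in received replicate 2 and 18.3% to 22.6% in not-received replicate 1. CGB7 took 11.9% ± 2.30 against 7.05% ± 0.869 and LHB 5.27% ± 0.210 against 3.57% ± 0.535. There were 1.36, 1.22 and 0.889 counts of CGB5 for each count of CGB7 in received replicates 1, 2 and 3 and 2.93, 2.57 and 3.43 in the not-received libraries. These shares come from the contrast that chose the members and from counts that paralogs can share, and were not tested.

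**Figure D3:**
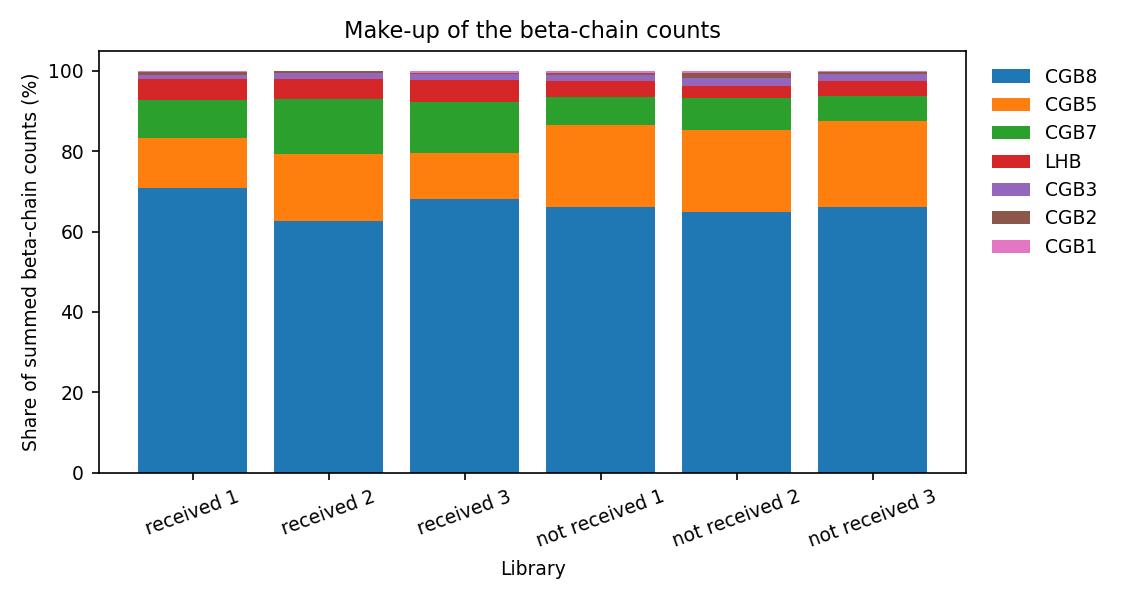
Share of the summed beta-chain counts taken by each gene in each library, in percent, as stacked bars. CGB8 takes the largest part of every bar, and CGB5 (orange) takes a smaller part in the received libraries (11.3% to 16.6%) than in the not-received libraries (20.4% to 21.4%).

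The genes around the beta cluster were looked at next, from a list of 22 neighbours on chromosome 19. Calls by edgeR's quasi-likelihood test made up 18.8% of the 16 tested, against 18.9% of all genes tested in either direction and 9.67% lower. Of the 16, 0 were called higher and 3 lower, with a median log2 fold change of -0.09. Those that fell were GYS1, the muscle glycogen synthase gene (log2 fold change -0.69 ± 0.07 SE, edgeR adjusted p = 1.62e-05), FTL, the ferritin light chain (1950 ± 110 against 2895 ± 177 CPM, adjusted p = 6.29e-05), and PPP1R15A, a stress-induced phosphatase subunit (-0.50 ± 0.09, adjusted p = 0.00287). These 3 of 16 became 5 of 17 tested when not-received replicate 3 was left out, and 5 of 22 with DESeq2 or with no filter on low counts. In each of these settings 0 were called higher. RUVBL2 and BAX, which also lie on the LHB side of the cluster, were not among the genes called.

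Inside and at the far edge of the cluster, further genes are given, chosen after their values were seen. LOC100287489, a pseudogene between CGB8 and CGB7, had 65, 35 and 55 counts in received cells and 242, 461 and 159 in not-received cells, with a log2 fold change of -1.95 ± 0.23 SE (edgeR adjusted p = 2.44e-04). NTF4, the neurotrophin-4 gene beyond CGB7, had 5, 6 and 9 counts in received cells and 47, 65 and 9 in not-received cells, so that not-received replicate 3 lay within the received range. KCNA7, a potassium channel gene next to NTF4, had 20, 18 and 32 against 109, 135 and 34 counts and was not called (log2 fold change -1.51 ± 0.50 SE, edgeR adjusted p = 0.0733). The noncoding genes SNAR-G1 and SNAR-G2 had 4 and 3 counts in all. Of the other pseudogenes inside the cluster, NTF6B had 3 counts in received and 39 in not-received cells. LOC100287453 had 6 and 28, and the groups of both did not overlap. NTF6A had 5 and 19 and NTF6G 3 and 7, and their groups overlapped. These pseudogenes had too few counts for the test. How reads that run across neighbouring genes of the cluster were counted was not tested.

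Around CGA, 10 neighbours were tested and 10% were called by edgeR, against 18.9% of all genes tested. Of these 10, 0 were called higher (2 with scaling by library size alone) and 1 lower (0 with DESeq2). This was TBX18, a T-box transcription factor (log2 fold change -0.28 ± 0.08 SE, edgeR adjusted p = 0.0207), a call that was lost without any 1 received library (adjusted p up to 0.0944). NT5E, the ecto-5′-nucleotidase CD73, is among these neighbours and stood at 1269 ± 32.2 CPM in received and 1293 ± 84.4 CPM in not-received cells, whereas CGA had no count (NT5E was chosen after its values were seen).

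Of the receptors, LHCGR, through which chorionic gonadotropin and luteinizing hormone act, and FSHR had 0 counts in all 6 libraries, and TSHR had 4 counts in received and 5 in not-received cells. The related receptor gene LGR4, whose protein binds R-spondins, was the 1 called gene of 2 tested (50%, against 18.9% of all genes tested). It stood at 84.6, 91.7 and 86.9 CPM in received and at 71.0, 75.1 and 74.0 CPM in not-received cells. The groups did not overlap, and LGR4 rose by 0.26 ± 0.06 on the log2 scale (edgeR adjusted p = 0.0116), a call lost without received replicate 2 (adjusted p = 0.0731). In the list of releasing hormones and feedback factors, 0 of 4 tested genes were called by edgeR, and 0 by DESeq2 or limma-voom, while 1 had an unadjusted edgeR p under 0.05. The smallest p-values belonged to FST, follistatin (log2 fold change 0.28 ± 0.13 SE, edgeR adjusted p = 0.147), and FSTL3 (0.09 ± 0.14, adjusted p = 0.693).

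Of 26 factors known at the CGA, CGB or LHB promoters, 17 were tested, with a median log2 fold change of -0.07. Of these 17, 0 were called higher and 2 lower (11.8%, against 18.9% of all genes tested in either direction and 9.67% lower). GATA2, a zinc-finger factor of trophoblast and of blood progenitors, had 6.93, 5.63 and 8.67 CPM in received cells and 15.9, 11.8 and 11.4 CPM in not-received cells. The groups did not overlap, not-received replicate 1 was the highest, and GATA2 fell by 0.88 ± 0.17 on the log2 scale (edgeR adjusted p = 0.00454). RXRA, the retinoid X receptor alpha, fell from 38.1 ± 2.40 to 25.8 ± 2.82 CPM (edgeR adjusted p = 9.63e-04). TFAP2A, an AP-2 factor, stood at 12.7 ± 1.18 CPM in received and 14.2 ± 1.08 CPM in not-received cells (edgeR adjusted p = 0.311). CREB1, which binds cAMP response elements, at 53.4 ± 3.82 against 56.8 ± 2.44 CPM (adjusted p = 0.423), and EGR1, an activator of LHB in the pituitary, at 36.7 ± 2.38 against 36.0 ± 5.74 CPM (adjusted p = 0.926). The trophoblast factors TFAP2C and GCM1 had 2 and 6 counts in all.

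In cAMP and protein kinase A signalling, 3 of 21 tested genes rose and 4 fell (33.3%, against 18.9% of all genes tested). ADCY8, an adenylyl cyclase, stood at 26.3, 28.8 and 28.5 CPM in received cells and at 48.8, 52.3 and 47.2 CPM in not-received cells, and fell by 0.83 ± 0.08 on the log2 scale (edgeR adjusted p = 1.25e-05). PDE4D, a cAMP phosphodiesterase gene, stood at 15.4, 15.6 and 14.7 against 8.47, 9.76 and 10.2 CPM and rose by 0.68 ± 0.11 (adjusted p = 8.14e-04), and PDE4B, another of these, rose by 0.62 ± 0.10 (adjusted p = 8.78e-04). ADCY9 had a log2 fold change of -0.40 ± 0.12 (adjusted p = 0.0374), a call that held when not-received replicate 1 was left out and was lost without any 1 of the other libraries (adjusted p up to 0.151), with scaling by library size alone (0.0502), with DESeq2 (0.0704) and with limma-voom (0.0503). The counts were 5 higher and 2 lower without not-received replicate 2, 2 and 1 without received replicate 1 or 3, 2 and 2 without received replicate 2, and 3 and 2 with scaling by library size alone, DESeq2 or limma-voom. PRKACA, a catalytic subunit gene of the kinase chosen after its values were seen, had 52 counts in all, so its level is uncertain.

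Of 25 genes for the folding and glycosylation of the chains, 18 were tested, with a median log2 fold change of -0.10. Of these 18, 0 were called higher and 3 lower (16.7%, against 18.9% of all genes tested in either direction and 9.67% lower). CALR, the lectin chaperone calreticulin, fell from 2284 ± 48.4 to 1707 ± 122 CPM (edgeR adjusted p = 5.28e-04), and PDIA3, a disulfide isomerase, fell by 0.31 ± 0.06 on the log2 scale (adjusted p = 0.00207). ST3GAL6, a sialyltransferase gene, had a log2 fold change of -0.55 ± 0.15 (adjusted p = 0.0204), a call lost without received replicate 1 or 3 or not-received replicate 3 (adjusted p up to 0.101). These 3 became 5 when not-received replicate 2 was left out, and 2 without received replicate 1, received replicate 3 or not-received replicate 3, the last with 1 higher. CHST8 and CHST9, sulfotransferases that modify the sugars of pituitary luteinizing hormone, had 0 counts.

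Among 38 placental hormones and trophoblast proteins, which also serve as markers of the tissue that normally makes chorionic gonadotropin, 12 had 0 counts, among them CSH1, ERVFRD-1, LGALS13, HSD3B1, CYP11A1 and HLA-G. Syncytin-1 (ERVW-1) had 3 counts in all. As no source states how shared reads were counted, 0 counts of a gene with close relatives need not mean no RNA. Of 11 tested, 1 rose and 2 fell (27.3%, against 18.9% of all genes tested). PSG5, a pregnancy-specific glycoprotein gene with close paralogs, had 9, 8 and 6 counts in received and 26, 53 and 21 in not-received cells. PSG5 fell by 1.58 ± 0.34 on the log2 scale (edgeR adjusted p = 0.00615). Its paralogs PSG4 (-0.8 ± 0.35, adjusted p = 0.123) and PSG1 (-0.4 ± 0.44, adjusted p = 0.558) were not called, and their groups overlapped. Also not called were ADAM12 (218 against 206 CPM, adjusted p = 0.48) and PAPPA (66.7 against 58.8 CPM, adjusted p = 0.36). PSG4, PSG1, ADAM12 and PAPPA were picked with their levels already known. PAPPA2, a protease of insulin-like growth factor binding proteins, fell from 33.7 ± 3.77 to 21.8 ± 2.86 CPM (adjusted p = 0.00179). TFPI2, a serine protease inhibitor abundant in placenta, rose from 220, 218 and 237 to 570, 587 and 596 CPM (log2 fold change 1.38 ± 0.06, adjusted p = 8.95e-09). The list summed to 894 to 905 CPM in received and 510 to 569 CPM in not-received cells, of which TFPI2 was the larger part in received cells. Without not-received replicate 2 the list had 3 higher and 2 lower genes.

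**Figure D4:**
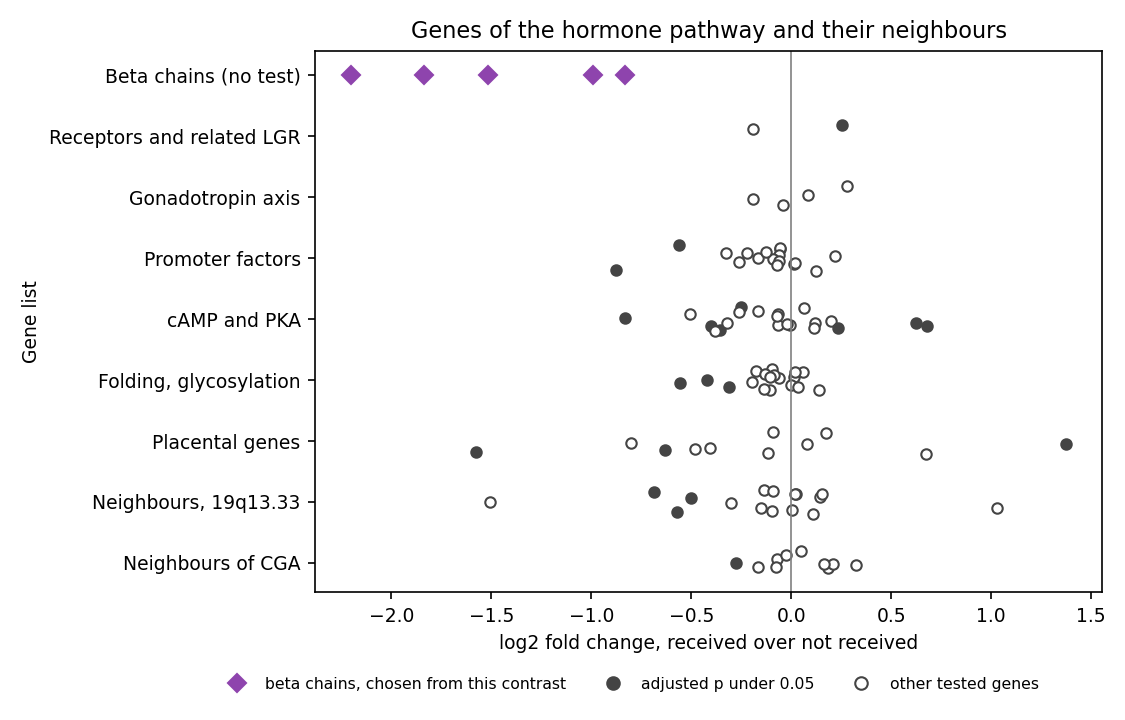
Log2 fold change, received over not received, of the tested genes in each list, with filled circles for genes at an edgeR adjusted p under 0.05, open circles for other tested genes and diamonds for the beta-chain genes, which have no test. Most circles lie within 0.5 of 0 (log2). The diamonds lie between -2.20 and -0.83, but these genes were chosen because they were lower in this contrast. Circles such as PSG5 (-1.58) and GATA2 (-0.88) lie in the same range.

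Over the lists together, 5 of 99 tested genes were called higher and 15 lower (20.2%, against 18.9% of all genes tested), and their median log2 fold change was -0.07. The calls in the lists were mostly lower, whereas over all genes tested 9.21% were called higher and 9.67% lower. The median over all genes tested was -0.0012. Without received replicate 2 the 5 higher genes were 3, and without not-received replicate 2 they were 9.

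Markers of the cells were checked beside these results. Of 12 astrocyte markers, 9 had counts. AQP4, ALDH1L1 and GJB6 had 0, and S100B had 3 and GFAP 49 counts in all, named after their values were seen. The list summed to 102 to 103 CPM in received cells and to 103 to 106 CPM in not-received ones. Of the 4 tested, SOX9 was called higher (log2 fold change 0.31 ± 0.08 SE, edgeR adjusted p = 0.0198) and NDRG2 lower (-0.52 ± 0.15, adjusted p = 0.0316), which is 50% against 18.9% of all genes tested. SOX9 stood at 23.8 ± 1.56 CPM in received and 19.1 ± 0.671 CPM in not-received cells, and NDRG2 at 4.7 ± 0.409 and 6.77 ± 0.668 CPM. Most of the sum came from other markers of the list, which were not called. SOX9 lost its call without received replicate 1 or 3, and NDRG2 without any 1 library except not-received replicate 2 and with DESeq2 (adjusted p up to 0.0889 for SOX9 and 0.124 for NDRG2). Markers of glioblastoma lines were present as VIM (4680 ± 113 against 3918 ± 333 CPM) and NES (44.5 ± 3.71 against 32.5 ± 2.76 CPM), whereas SOX2 and FABP7 had 47 and 2 counts in all. SOX2 had 36 of its counts in received and 11 in not-received cells (0.607 and 0.102 CPM). Its groups did not overlap, and it did not pass the filter on low counts. Of 6 tested, VIM, NES and OLIG2 were called higher (edgeR adjusted p = 0.017, 0.00274 and 0.0418) and 2 lower, CHI3L1 among them (adjusted p = 3.75e-05), which is 83.3% against 18.9% of all genes tested. The call of OLIG2 held when not-received replicate 3 was left out and was lost without any 1 of the other libraries (adjusted p up to 0.179) and with DESeq2 (0.0538). That of VIM was lost without any 1 received library (adjusted p up to 0.0779). Without any 1 received library the calls were 1 higher and 1 lower. With no filter on low counts, 8 were tested, 4 called higher and 3 lower. The list summed to 5584 to 5800 CPM in received cells and to 4775 to 5459 CPM in not-received ones. The part of cell make-up in the beta-chain differences was not tested.

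The genes whose pattern over the 6 libraries was most like that of the summed beta genes were GALNT10, a polypeptide N-acetylgalactosaminyltransferase gene (Pearson r = 0.9991 on log2 CPM, n = 6 libraries), the antisense RNA gene DBH-AS1 (0.9986), FLCN, the folliculin gene (0.9979), TOLLIP, an adaptor of Toll-like receptor signalling (0.9975), and PFKL, a phosphofructokinase gene (0.9974). Genes with LOC, LINC or clone names were left out of this ranking. The measure is a description across libraries that fall into 2 groups: 917 of the 11455 genes considered (8.01%) had an r over 0.9. Their log2 fold changes were smaller than that of the summed beta genes, -0.41 for GALNT10, -1.08 for DBH-AS1, -0.53 for FLCN, -0.22 for TOLLIP and -0.33 for PFKL.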

How the data were processed

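Poly-A RNA of sorted U87 cells was sequenced as 150-base paired reads in 6 libraries, per the labels' protocols. The authors deposited whole-number read counts for 54628 gene symbols, 1 file per library, without normalization. DESeq and R 3.6.1 are named in the submitters' processing notes. Aligner, counting program, strand setting, build and annotation: not given in the sources used here.

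Genes kept by filterByExpr of edgeR 4.0.16 (R 4.3.3) were tested for the group by glmQLFTest after a robust glmQLFit with TMM scaling, with Benjamini-Hochberg adjustment over all genes tested and a threshold of 0.05. They held 99.8% to 99.9% of each library's counts. The SE is the absolute log2 fold change over the root of F. For the summed level, the counts of the 7 beta genes were added into 1 feature and the table was fitted again. Alternatives were RLE factors, library size alone, DESeq2 1.42.0, limma-voom 3.58.1, other filters, a replicate block and each library left out. The steps were tested on simulated counts.

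The members and gene lists were chosen with earlier results of these data known. Named genes are the members, up to 4 called genes of each list by absolute fold change (otherwise the 1 or 2 with the smallest p), FSHB, TSHB, LHCGR, FSHR, TSHR, TFAP2A, TFAP2C, GCM1, CREB1, EGR1 and FTL, and the 5 genes with the highest r to the summed beta genes at an average log2 CPM of at least 1. Others are marked, or are named for their counts, and were chosen after their values were seen. The ranking by r left out genes with LOC, LINC or clone names.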

Additional observations from a re-analysis of the deposited data

How the results depend on the processing

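The log2 fold change of the summed beta genes was -1.40 to -1.66 with any 1 library left out and -1.48 as a mean over the 5 tested genes. With 1 library left out it was -2.28 to -2.06 for CGB5, -1.61 to -1.35 for CGB8, -2.06 to -1.67 for CGB3, -1 to -0.7 for CGB7 and -1.16 to -0.72 for LHB. Under the other settings each of these moved by less than the SD between replicates. CGB3 had no value where genes under 1 CPM in more than 3 samples were dropped, since it was among them. Over all genes, 604 to 1356 were called higher and 691 to 1579 lower with 1 library left out, and 2084 lower without a low-count filter, which tests more genes. The lowest counts were those without 1 received library. Of the listed genes 3 to 9 were higher and 10 to 16 lower with 1 library left out. With the replicate number as a block the summed beta genes had a log2 fold change of -1.56, and 1252 genes were higher and 1384 lower. Same-numbered libraries did not deviate together (correlations of -0.200, -0.0680 and 0.0535), and 0 of 6 correlated best with their own number. With 3 libraries per group this cannot show whether same-numbered libraries came from the same co-culture. No named gene that had been called changed direction under the settings run, and 38 values under an alternative missed the threshold that the gene had passed. Depth limits CGB1, CGB2 and CGB3, which had 30, 55 and 108 counts in all.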
